A study of Rattus norvegicus with 6 samples.

Results

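The 35 genes described here encode the enzymes that build cholesterol and long-chain fatty acids, with the proteins that control and carry their products. They were chosen by gene symbol, and 33 of them had a probe set of their own on the array, of 10411 genes so named. Of the 33, 17 belong to the sterol branch, 12 to the fatty acid branch and 4 are regulators. Where a gene had several probe sets, the brightest on average (mean log2 signal, all 6 arrays) stood for it. Hmgcs1 and Stard4 were matched to no probe set and are not analysed here.

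The cells were AR42J, a rat cell line from a tumour of the exocrine pancreas. Control cultures (n = 3) were kept for 48 h in medium with 5% serum, and treated cultures (n = 3) in the same medium with 100 nM dexamethasone, a synthetic glucocorticoid. Both groups had been plated for 24 h in 20% serum from stocks at passage 29, and the study's design text describes 3 independent control and treated pairs. The experiment was run 3 times over 5 months from frozen stocks. The groups are 1 line at 1 dose and 1 time. Values are MAS5 signals, a linear brightness per probe set that compares arrays for 1 gene and not genes with each other. Log2 changes are dexamethasone minus control ± SE from limma with replicate number as a block. A gene is called higher or lower where limma's p, adjusted by Benjamini-Hochberg over 9520 probe sets, is under 0.05.

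Cholesterol is built from acetyl-CoA through mevalonate, farnesyl diphosphate, squalene and lanosterol, and fatty acids from the same acetyl-CoA by carboxylation, chain synthesis, elongation and desaturation. Transcription of both branches is driven by sterol regulatory element binding proteins (SREBPs), which Scap escorts out of the endoplasmic reticulum and Insig proteins hold back when sterol is plentiful. Promoters of these genes often carry a CCAAT box, bound by NF-Y, or a GC box, bound by Sp1, beside an SREBP site. In the exocrine pancreas these lipids supply the membranes of the endoplasmic reticulum and the secretory granules.

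Promoter windows are shown for the members with the largest changes that have a window in the table used here. Mvd, Dhcr7 and Fads1 were dimmer with dexamethasone and Ebp was brighter. Each window runs from 250 bases before to 50 bases after the annotated start site, from RefSeq on the rat assembly GRCr8, 5′ to 3′ on the gene's strand. Capitals mark CCAAT and GGGCGG motifs, read on both strands. The windows lie at chr19:67414925-67415224 (minus strand), chr1:208444184-208444483 (plus), chr1:216252442-216252741 (plus) and chrX:16971212-16971511 (plus).
Mvd: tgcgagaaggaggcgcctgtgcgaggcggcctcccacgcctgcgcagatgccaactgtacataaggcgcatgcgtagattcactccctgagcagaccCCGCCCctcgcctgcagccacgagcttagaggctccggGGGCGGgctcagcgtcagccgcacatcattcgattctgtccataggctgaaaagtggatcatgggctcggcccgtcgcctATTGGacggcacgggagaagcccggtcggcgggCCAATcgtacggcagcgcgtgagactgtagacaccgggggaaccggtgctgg
Dhcr7: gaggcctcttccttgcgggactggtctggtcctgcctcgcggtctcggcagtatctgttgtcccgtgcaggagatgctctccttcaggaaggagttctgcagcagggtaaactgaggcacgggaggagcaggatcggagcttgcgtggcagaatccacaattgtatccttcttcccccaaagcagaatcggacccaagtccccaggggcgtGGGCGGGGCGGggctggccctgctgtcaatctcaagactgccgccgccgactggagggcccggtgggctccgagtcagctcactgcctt
Fads1: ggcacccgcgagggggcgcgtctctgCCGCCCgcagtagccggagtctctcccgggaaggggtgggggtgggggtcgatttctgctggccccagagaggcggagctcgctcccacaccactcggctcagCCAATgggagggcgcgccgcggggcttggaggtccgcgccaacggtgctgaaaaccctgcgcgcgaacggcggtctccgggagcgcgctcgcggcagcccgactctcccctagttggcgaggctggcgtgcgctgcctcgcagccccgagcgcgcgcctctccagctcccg
Ebp: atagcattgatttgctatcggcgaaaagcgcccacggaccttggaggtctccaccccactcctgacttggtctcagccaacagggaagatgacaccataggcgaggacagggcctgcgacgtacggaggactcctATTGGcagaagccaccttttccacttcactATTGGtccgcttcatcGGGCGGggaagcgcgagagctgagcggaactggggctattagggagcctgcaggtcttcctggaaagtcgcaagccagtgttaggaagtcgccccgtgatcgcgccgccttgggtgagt

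Among the 27 measured members with a window, 20 held CCAAT (74.1%), against 38.2% of the 6511 windows of genes tested. GGGCGG was in the windows of 21 members (77.8%), against 63.8% of those windows. The letters AGAACA, a hexamer of the glucocorticoid response element, were in 2 members' windows, Hsd17b7 and Scap (7.41% against 12.0%). A sterol regulatory element core, searched as TCACNCCAC on both strands, was in none of the 27 and in 1.17% of windows of genes tested. Ebp, which rose, and Mvd, which was lower, each hold 2 copies of CCAAT and at least 1 of GGGCGG. Dhcr7, which fell, holds GGGCGG and no CCAAT. These matches describe letters in 300 bases and no binding was measured.

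With dexamethasone, 11 of the 28 members tested fell, 6 rose and 11 did not pass the threshold. Over all 7051 genes tested, 38.4% were called, 21.4% lower and 17.0% higher. The other 5 members, Mvd, Nsdhl, Hsd17b7, Elovl6 and Gpam, were below the filter on mean signal (147.6) and were not in the main test. In the sterol branch 5 of 14 tested members fell and 3 rose, and in the fatty acid branch 5 of 10 fell and 2 rose. Among members tested, the largest falls were in Sqle, Fads1 and Dhcr7, each by more than 2-fold, and the only rise of that size was in Ebp. Sqle reached the filter only through its controls, as its treated signals had a mean of 118.5 against 498.5 in controls. Its place among the tested members therefore rests on the group where it was high.

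The median log2 change was -0.13 over the 14 sterol members and -0.44 over the 10 fatty acid members, beside -0.04 over all genes tested. With 75th percentile centring the sterol median was -0.0047, beside 0.08 over all genes tested. With hybridization control scaling it was -0.38, beside -0.29 over all genes tested. Within pairs 1, 2 and 3 the sterol median was -0.13, 0.12 and -0.64, and the fatty acid median was -0.34, -0.52 and -0.43. The fatty acid median was thus below 0 in every pair and the sterol median in 2 of 3. The difference between the branches was not tested, since the members were chosen with results of these data known. Both branches held members at either extreme: 1.25% of genes tested had a lower fitted change than Sqle and 2.11% a lower one than Fads1, whereas Ebp stood at the 96.7th percentile and Thrsp at the 94.1st.

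**Figure D1:**
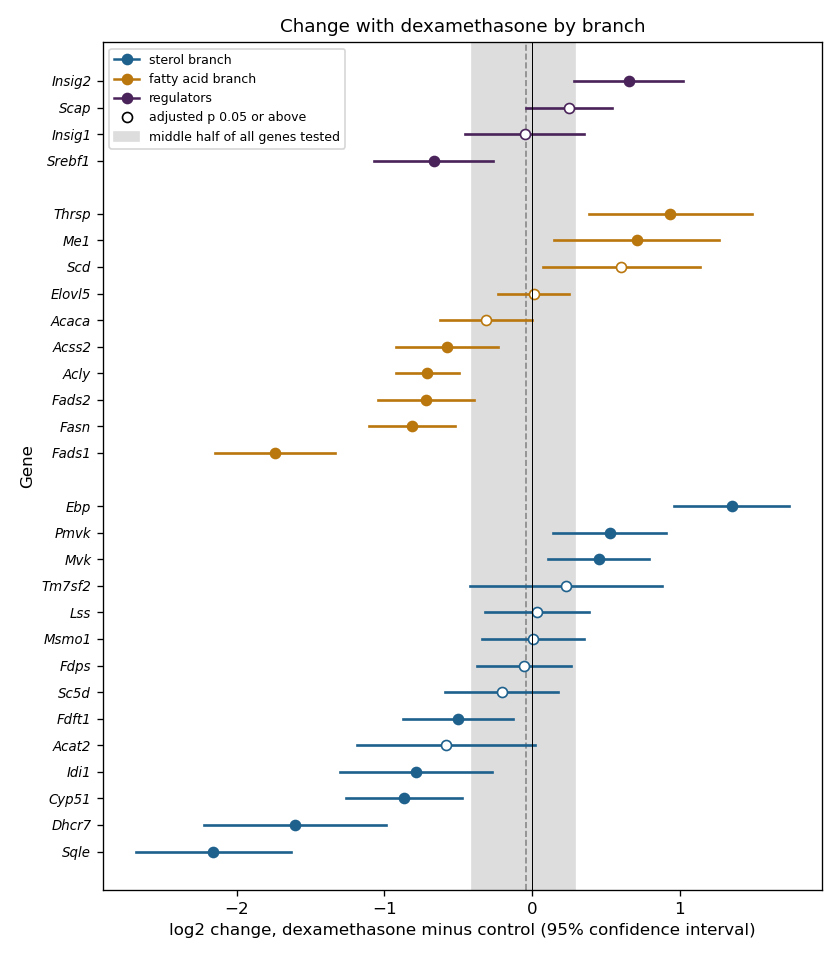
Fitted log2 change (x axis, dexamethasone minus control) with its 95% confidence interval for each tested gene (y axis), sorted within branch; filled points have an adjusted p under 0.05, the grey band spans the 25th to 75th percentiles of all genes tested and the dashed line their median. Sqle (-2.16), Fads1 (-1.74) and Dhcr7 (-1.61) lie farthest to the left and Ebp (1.35) farthest to the right.

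The early sterol enzymes, from acetyl-CoA to farnesyl diphosphate, went in both directions. Acat2, the cytosolic thiolase that joins acetyl-CoA units, had signals of 540.0, 549.7 and 737.5 in controls and 405.9, 603.2 and 266.4 with dexamethasone. The groups overlapped, with dexamethasone 3 lowest, and the change did not pass (-0.58 ± 0.27, adjusted p = 0.119 by limma). Acat2 was called lower when replicate 2 was left out (-0.94, adjusted p = 0.0491 by limma) and when arrays were scaled to hybridization controls. Mvk, mevalonate kinase, rose 1.37-fold, from 400.2, 401.2 and 314.2 to 507.9, 597.6 and 425.9 (0.45 ± 0.15, adjusted p = 0.0426). Pmvk, the kinase of the next step, rose 1.44-fold, from 259.6, 256.7 and 318.7 to 352.0, 437.3 and 412.8 (0.53 ± 0.17, adjusted p = 0.0366). Every treated signal of both kinases was above every control signal, although the second testable probe set of Mvk did not pass (0.15 ± 0.19, adjusted p = 0.580) and the remaining Mvk probe set was below background on all arrays.

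Mvd, which decarboxylates mevalonate diphosphate, narrowly missed the filter, with a geometric mean signal of 144.6. Its signals were 327.5, 353.3 and 330.4 in controls and 40.3, 165.1 and 36.0 with dexamethasone, of which only dexamethasone 2 was above its array's background level. In the fit without the filter its change was -2.44 (adjusted p = 0.00793 by limma). Idi1, the isomerase that follows it, fell 1.72-fold, from 321.9, 275.6 and 341.0 to 127.5, 222.5 and 209.0 (-0.78 ± 0.23, adjusted p = 0.0258), a call lost without replicate 1 (-0.51, adjusted p = 0.157). The other probe set of Idi1 was too dim for the test and did not overlap between groups (-1.18 without the filter, adjusted p = 0.0601). Fdps, farnesyl diphosphate synthase, did not pass (-0.05 ± 0.14, 95% interval -0.37 to 0.26, adjusted p = 0.800). Between acetyl-CoA and farnesyl diphosphate, 2 genes thus rose and 1 fell among the 5 tested.

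Around squalene, Fdft1 and Sqle fell and Lss did not pass. Fdft1, squalene synthase, fell 1.41-fold, from 521.7, 574.7 and 662.7 to 399.3, 476.1 and 369.4 (-0.50 ± 0.17, adjusted p = 0.0417), while the dimmer Fdft1 probe set missed the threshold (-0.35 ± 0.17, adjusted p = 0.145). Sqle, squalene epoxidase, the oxygen-using and rate-limiting step of the later pathway, fell 4.46-fold, from 438.6, 523.5 and 533.4 to 81.5, 180.3 and 93.7 (-2.16 ± 0.23, adjusted p = 0.000155). For Sqle the groups were far apart, but only dexamethasone 2 was above background among the treated arrays. Lss, which closes the ring to lanosterol, did not pass (0.03 ± 0.16, 95% interval -0.32 to 0.39, adjusted p = 0.888), and its other probe set was below background on all arrays.

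After lanosterol the steps diverged. Cyp51, the demethylase that begins them, fell 1.82-fold, from 1010, 1346 and 1396 to 673.5, 850.8 and 546.6 (-0.87 ± 0.17, adjusted p = 0.00464), and its other probe set fell by 0.60. Ebp, the sterol isomerase, rose 2.55-fold, from 150.4, 196.1 and 209.4 to 434.5, 507.0 and 467.3 (1.35 ± 0.17, adjusted p = 0.000409). Dhcr7, which completes cholesterol by the final reduction fell 3.05-fold, from 1603, 1966 and 1996 to 768.5, 891.9 and 325.0 (-1.61 ± 0.27, adjusted p = 0.00201). None of these 3 genes overlapped between groups, and Ebp moved opposite to Cyp51 and Dhcr7.

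Other late enzymes did not pass. Msmo1, a sterol methyl oxidase, did not pass (0.01 ± 0.15, 95% interval -0.34 to 0.35, adjusted p = 0.979). Tm7sf2, a sterol reductase, ranged from 262.0 to 434.0 in controls and from 252.0 to 686.6 with dexamethasone (0.23 ± 0.29, adjusted p = 0.565). Sc5d, the desaturase before Dhcr7, had a change of -0.21 ± 0.17 (adjusted p = 0.375) and, on its other probe set, of 0.27 ± 0.18 (adjusted p = 0.270), so the signs differed. Without replicate 3, Tm7sf2 passed the threshold and was higher (0.74, adjusted p = 0.00819 by limma). Nsdhl and Hsd17b7, which act together in removing methyl groups, were dim, and Nsdhl had a change of 0.11 without the filter (adjusted p = 0.833). Hsd17b7 was above background in all 3 controls and in none of the treated arrays, but its groups overlapped, with no call in the fit without the filter (adjusted p = 0.290, and 0.198 on its other probe set).

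**Figure D2:**
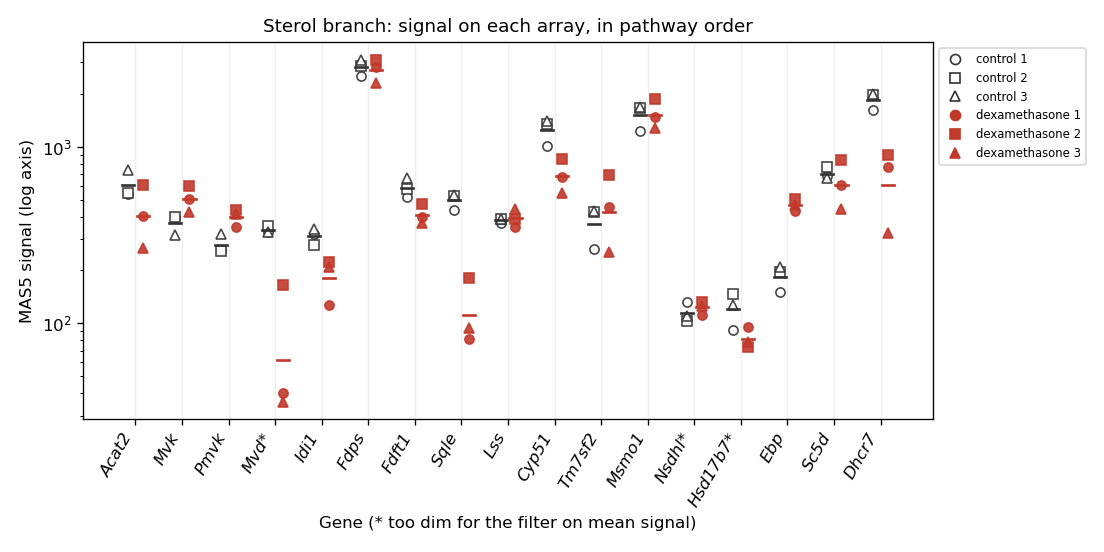
MAS5 signal (y axis, log scale) of each sterol branch gene (x axis, from Acat2 at the start of the pathway to Dhcr7 at its end) on the 3 control (open) and 3 dexamethasone (red) arrays; bars are geometric means, an asterisk marks genes too dim for the test and marker shapes give the replicate number. The treated points of Mvd, Sqle and Dhcr7 lie below all controls and those of Ebp above; heights of different genes are not comparable.

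Of the enzymes that make acetyl-CoA and palmitate, Acly, Acss2 and Fasn fell and Acaca did not pass. Acly, ATP citrate lyase, which makes cytosolic acetyl-CoA for both branches, fell 1.63-fold, from 7394, 7336 and 6868 to 4530, 4403 and 4281 (-0.71 ± 0.09, adjusted p = 0.000491). Acss2, which makes acetyl-CoA from acetate, fell 1.49-fold, from 664.3, 874.0 and 680.1 to 513.7, 617.2 and 376.9 (-0.57 ± 0.15, adjusted p = 0.0178), a call lost without replicate 2 or 3 (adjusted p = 0.0632 and 0.109). Fasn, fatty acid synthase, fell 1.76-fold, from 1717, 1715 and 1861 to 1120, 878.9 and 1025 (-0.81 ± 0.13, adjusted p = 0.00137). All treated signals of these 3 genes were below all control signals, and the pairwise changes of Acly were close to each other, at -0.71, -0.74 and -0.68. The dimmer probe set of Fasn did not pass (-0.39 ± 0.17, adjusted p = 0.110), nor did Acaca, the acetyl-CoA carboxylase between them (-0.31 ± 0.14, adjusted p = 0.112), whose groups did not overlap. The other probe set of Acaca gave -0.25 ± 0.16 (adjusted p = 0.262), and Acaca was called lower with hybridization control scaling.

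Both members that are desaturases of polyunsaturated fatty acids fell, and Scd, a desaturase of monounsaturated ones, did not. Fads1 fell 3.34-fold, from 1769, 1976 and 2037 to 588.4, 765.4 and 422.8 (-1.74 ± 0.18, adjusted p = 0.000124). Fads2, its neighbour on chromosome 1, fell 1.64-fold, from 1399, 1580 and 1366 to 1058, 850.6 and 758.9 (-0.71 ± 0.14, adjusted p = 0.00482). Scd, a stearoyl-CoA desaturase, had signals of 365.5, 542.2 and 472.3 in controls and 715.0, 1111 and 416.0 with dexamethasone. The treated signals of Scd lay on either side of the controls, and its change did not pass (0.61 ± 0.23, adjusted p = 0.0722). Its changes within pairs 1, 2 and 3 were 0.97, 1.03 and -0.18. Scd passed and was higher without replicate 3 (adjusted p = 3.5e-05 by limma), and also with 75th percentile centring and quantile normalization. Scd2, another stearoyl-CoA desaturase and not a member, did not pass either (0.24 ± 0.11, adjusted p = 0.111 by limma).

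Elongation gave no call on the probe sets chosen. Elovl5, an elongase of polyunsaturated chains, had a bright probe set that did not pass (0.01 ± 0.11, 95% interval -0.23 to 0.25, adjusted p = 0.947) and a dimmer one that fell, from 1796, 1443 and 1929 to 1047, 1128 and 1220 (-0.60 ± 0.13, adjusted p = 0.00776). The 2 probe sets of Elovl5 therefore disagree, and the gene has no single direction here. Elovl6, which lengthens palmitate, was too dim for the test, at 111.1, 133.7 and 111.6 in controls and 67.1, 99.1 and 67.3 with dexamethasone, with no call in the fit without the filter (adjusted p = 0.179). Gpam, which begins glycerolipid assembly, was also too dim (0.02 in that fit, adjusted p = 0.973).

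The 2 members of the branch that rose were Me1 and Thrsp. Me1, malic enzyme, a source of NADPH for chain synthesis, went from 518.4, 394.3 and 454.4 to 701.8, 1151 and 503.1 (0.71 ± 0.25, adjusted p = 0.0496), and its other probe set rose by 0.80 (adjusted p = 0.0171). The groups of Me1 overlapped on the first probe set, the treated values were led by dexamethasone 2, and the change was 0.29 without replicate 2 (adjusted p = 0.270). It was 0.85 without replicate 1, also with no call (adjusted p = 0.0801). Thrsp, a lipogenic factor that responds to thyroid hormone and carbohydrate, rose 1.91-fold, from 156.5, 162.8 and 147.7 to 310.0, 206.1 and 413.4 (0.94 ± 0.24, adjusted p = 0.0158). Its other testable probe set rose by 0.89, and on both every treated array was above every control. That dimmer probe set reached the filter only through its treated arrays, with control signals of 92.3, 121.4 and 130.1. The remaining Thrsp probe set was below background on all arrays. The call of Thrsp was lost without replicate 1 or 3 (adjusted p = 0.0746 and 0.0708).

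**Figure D3:**
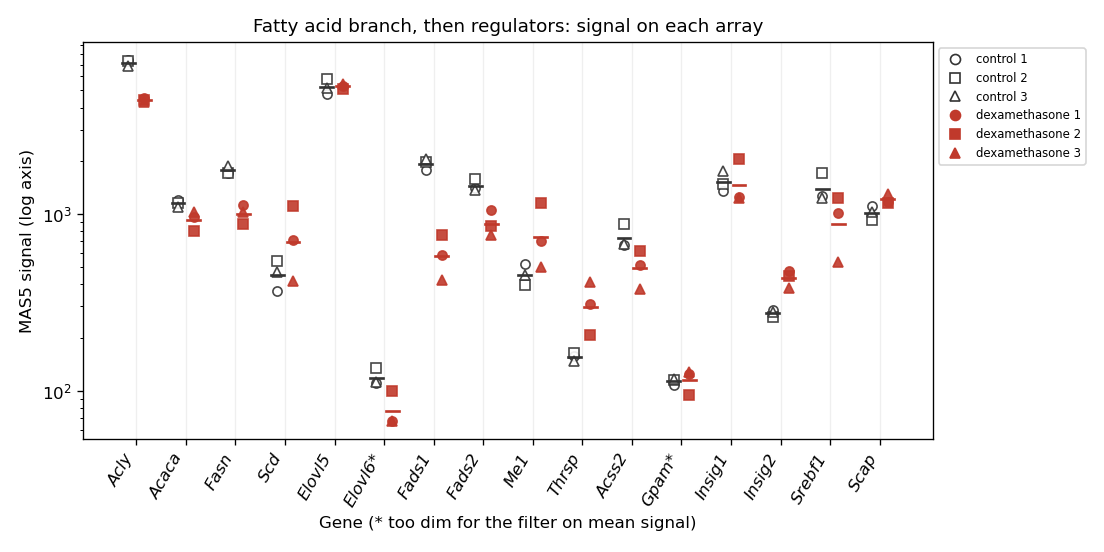
MAS5 signal (y axis, log scale) of the fatty acid branch genes, then the regulators (x axis), on the 3 control (open) and 3 dexamethasone (red) arrays; bars are geometric means, an asterisk marks genes too dim for the test and shapes give the replicate number. Acly, Fasn, Fads1 and Fads2 lie below their controls on all treated arrays and Thrsp above; heights of different genes are not comparable.

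Among the regulators, Srebf1 fell and Insig2 rose. Srebf1, the SREBP gene that acts mainly on fatty acid synthesis, fell 1.59-fold, from 1267, 1697 and 1237 to 1008, 1226 and 538.5 (-0.67 ± 0.18, adjusted p = 0.0179), and its other probe set fell by 0.68. The groups of Srebf1 did not overlap but came close, at 1226 against 1237, and without the replicate block the call was lost (adjusted p = 0.0796), as it was without replicate 2 or 3 (adjusted p = 0.0579 and 0.0959). Insig2 rose 1.57-fold, from 285.9, 260.8 and 279.5 to 474.8, 447.7 and 382.7 (0.65 ± 0.16, adjusted p = 0.0134), with no overlap. That call was lost without replicate 1 or 2 (adjusted p = 0.0674 and 0.0642), and also with hybridization control scaling (0.41, adjusted p = 0.0830 by limma). Insig1, itself an SREBP target, had signals of 1348, 1485 and 1743 in controls and 1250, 2043 and 1233 with dexamethasone and did not pass (-0.05 ± 0.18, adjusted p = 0.852). Scap did not pass either (0.25 ± 0.13, adjusted p = 0.163), although it was called higher with 75th percentile centring (0.37, adjusted p = 0.0484).

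Of the 28 members tested, 18 had groups that did not overlap (51.0% of all genes tested). The calls of Sqle, Cyp51, Ebp, Dhcr7, Acly, Fasn, Fads1 and Fads2 kept their direction and their side of the threshold in all alternatives where they were tested. The other 9 calls were each lost in at least 2 of the 12 alternatives, those of Mvk and Fdft1 in 7 and that of Me1 in 6. These cover leaving out any of the 3 pairs: Mvk, Pmvk and Fdft1 lost their calls without any 1 of them.

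The sterol genes also differed among cultures of the same group. Among treated arrays, dexamethasone 2 was the highest for 13 of 14 sterol members, 4 of 10 fatty acid members and 2 of 4 regulators, against 27.4% of all genes tested. Lss was the sterol member for which it was not. Dexamethasone 3 was the lowest for 9 sterol members, 6 fatty acid members and 3 regulators, against 33.9% of genes tested. Other lists showed this order in part. Of the 4 hepatocyte markers tested, dexamethasone 2 was the highest for 3 and dexamethasone 3 the lowest for 3. Dexamethasone 3 was also the lowest for 7 of 9 acinar markers, but dexamethasone 1 was the highest for 6 and dexamethasone 2 for 3. Of 24 other genes of sterol supply tested, dexamethasone 2 was the highest for 6 and dexamethasone 3 the lowest for 12. The median log2 difference between dexamethasone 2 and dexamethasone 3 was 0.52 for sterol members, 0.10 for fatty acid members and -0.04 for all genes tested.

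The gap between those 2 cultures was 2.74-fold for Dhcr7, 2.72-fold for Tm7sf2, 2.67-fold for Scd, 2.29-fold for Me1, 2.28-fold for Srebf1 and 2.26-fold for Acat2. Acly, at 1.03-fold, was almost level between them, and Thrsp was lower in dexamethasone 2. In controls, control 1 was the lowest for 10 of 14 sterol members (31.7% of genes tested) and control 3 the highest for 11 (28.1% of genes tested). The ratio of 3′ to 5′ signal of the beta-actin control probe sets, a measure of RNA integrity, came to 1.50, 1.27 and 1.28 on control arrays 1 to 3. On dexamethasone arrays 1 to 3 it came to 1.46, 1.19 and 1.69. It was thus lowest in dexamethasone 2 and highest in dexamethasone 3, while that of Gapdh stayed between 0.97 and 1.07. The part of RNA integrity in this spread was not tested.

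**Figure D4:**
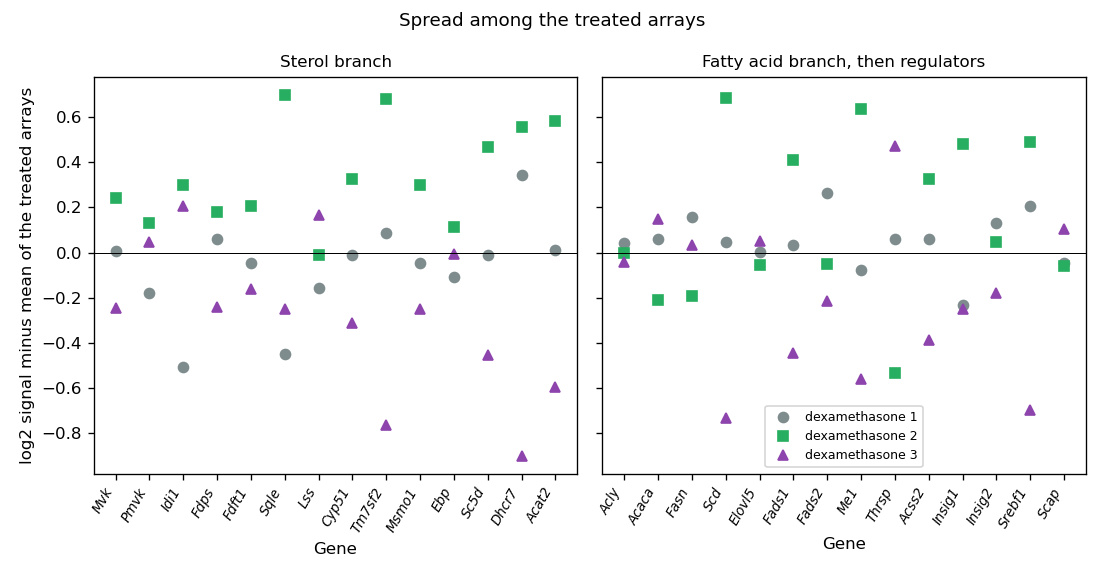
Log2 signal on each treated array minus the mean of the 3 treated arrays (y axis) for the tested sterol genes (left) and fatty acid genes and regulators (right), with 1 marker per array. Dexamethasone 2 (squares) is the highest for 13 of 14 sterol genes, and dexamethasone 3 (triangles) is the lowest for 9.

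Other genes of sterol supply and its control, a list of 38 of which 24 were tested, had these counts: 10 rose, 2 fell and 12 did not pass, with a median of 0.18. The fallers were Srebf2, the SREBP gene that acts mainly on sterol synthesis, from 2136 ± 167 to 1392 ± 48 (SD, n = 3; -0.61 ± 0.12, adjusted p = 0.00368 by limma), and Mbtps1, the protease that makes the initial cut in SREBPs (-0.66 ± 0.13, adjusted p = 0.00502). The largest rise was in Cyp27a1, a mitochondrial sterol hydroxylase that makes oxysterols, from 1423 ± 132 to 11183 ± 408 (2.98 ± 0.11, adjusted p = 5.1e-07). Nr1h3, the oxysterol receptor LXR alpha, rose by 1.75 ± 0.22 on the log2 scale and Por, the reductase that hands electrons to Cyp51, Sqle and other enzymes, by 1.57 ± 0.16. Nr1h3 reached the filter only through its treated arrays, with control signals of 126.8, 103.5 and 125.3. Its place among the risers therefore rests on the group where it was high. The list's shares of 41.7% higher and 8.33% lower stand beside 17.0% and 21.4% of all genes tested.

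Other fatty acid and glycerolipid genes, a list of 55 of which 33 were tested, had 14 risers, 3 fallers and 16 that did not pass, with a median of 0.40. Its shares of 42.4% higher and 9.09% lower stand beside 17.0% and 21.4% of all genes tested. Of the risers, Mgll and Pparg reached the filter only through their treated arrays, with mean control signals of 112.7 and 138.3. The largest rises were in Lpin1, the phosphatidate phosphatase (1.98 ± 0.16), Pnpla2, the triglyceride lipase ATGL (1.92 ± 0.20), and Dgat2, which completes triglyceride (1.50 ± 0.11), from 1829 ± 154 to 5242 ± 982. The fallers were Fabp5, a fatty acid binding protein, from 3264 ± 252 to 738.8 ± 401.6 (-2.30 ± 0.26), Acsl3, an acyl-CoA synthetase (-1.97 ± 0.19), and Hsd17b12, the reductase of the elongation cycle (-0.64 ± 0.13). All of these passed limma's adjusted threshold.

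Arrays had trimmed mean signals of about 500.1. Background levels were 54.5, 97.3 and 51.7 on control arrays 1 to 3 and 100.2, 83.7 and 115.9 on dexamethasone arrays 1 to 3. A dim signal is thus more easily at background in the treated array of pairs 1 and 3, and in the control array of pair 2. Among treated arrays, dexamethasone 2 had the lowest background level. The pancreatic label was checked on acinar markers, of which 7 rose: all 9 on the array were above background on all 6 arrays, with summed signals of 64522 to 77135 in controls and 98585 to 110528 with dexamethasone. Of the 5 adipocyte markers on the array none was above background on all arrays, Lep and Fabp4 were below it on every array, and the summed signal was 219.9 to 314.7 in controls and 207.6 to 333.9 with dexamethasone. Of 7 hepatocyte markers, Ttr and Serpina1 rose, each with overlapping groups (summed signal 1373 to 3561 in controls and 2957 to 16503 with dexamethasone). Apob (0.11, adjusted p = 0.685 by limma) and Cyp7a1 (0.15, adjusted p = 0.711) did not pass, and Alb, Fgb and Cps1 were too dim for the test. On dexamethasone 2, Ttr alone gave 12962 of the summed 16503. Of 6 stromal and blood markers Pecam1 rose and Col1a1 did not pass (summed 504.0 to 568.8 and 726.8 to 831.3). Col3a1, Ptprc, Cd68 and Hbb were too dim for the test. The groups of Col3a1 did not overlap, with a change of 0.63 and no call in the fit without the filter (adjusted p = 0.122 by limma). Pecam1 reached the filter only through its treated arrays, with control signals of 133.9, 132.4 and 95.9. The part of these markers in the lipid results was not tested. In whole cultures, fewer cells of a kind and less RNA per cell cannot be told apart.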

How the data were processed

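RNA of 6 AR42J cultures, 3 per group, was hybridised to 1 Affymetrix Rat 230A array each. The deposited values are MAS5 signal intensities on a linear scale, which the authors made; the submitters' processing notes name GCOS and MAS5, and versions and settings are not given in the sources used here. Each array's mean after trimming 2% at each end was about 500.1, so changes are relative to the array's total. Depth does not apply; 3 arrays per group limit precision.

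Of 15866 probe sets without controls, 12783 had 1 gene symbol in the platform annotation, checked through RefSeq gene identifiers of GRCr8. Log2 signals (4 zeros set to 0.1) were tested if their mean reached the 40th percentile, leaving 9520 probe sets and 7051 genes. limma 3.58.1 in R 4.3.3 (intensity trend, replicate number as a block) was used across all probe sets, with Benjamini-Hochberg adjustment and a threshold of 0.05, and was tested on simulated data. Replicate numbers were taken as pairs from the series' design text; deviations of same-numbered arrays correlated at -0.10, 0.11 and 0.21, so the numbers were not borne out in every pair, and no label states that a number marks a shared thaw or day. With the block, p-values measure the spread of the within-pair changes among these cultures, with variances drawn by limma toward a trend over all probe sets.

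The background level of an array was the highest of 27 Bacillus control probe sets, a choice made after the data were seen. Members and lists were chosen with earlier results of these data known. All members on the array are named, with Srebf2, Scd2, the 3 largest called rises and falls of each other list, genes of those lists limited by the filter, and cell type markers. Alternatives were 3 other scalings, 2 other filters, a pseudocount, no intensity trend, no replicate block, each pair left out, and the mean of a gene's probe sets.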

Additional observations from a re-analysis of the deposited data

How the results depend on the processing

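Of 17 called members, 8 kept their call and direction in each alternative where they were tested, and of 11 uncalled members 6 stayed uncalled; no call reversed. Scaling moved the median log2 change of all genes tested from -0.04 to 0.08 with 75th percentile centring and to -0.29 with hybridization control scaling. With 75th percentile centring the fatty acid median was -0.32 and 2 regulators were called higher. With hybridization control scaling it was -0.69, 1 sterol and 1 fatty acid member were called higher, and 1 regulator was called in all, 0 higher. With no filter, which adds dim probe sets to the adjustment, 5 sterol members were called, 1 of them higher, and 1 fatty acid member was higher. With a 60th percentile filter, which tests 11 sterol members, 5 were called, 3 lower, and 1 fatty acid member was higher, at a median of -0.57. With no intensity trend 1 fatty acid member was higher.

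Without the replicate block, 1 fatty acid member was higher, and 1 regulator was called, 0 lower; calls of Mvk (adjusted p = 0.0662), Srebf1 (0.0796) and Me1 (0.0585) by limma were lost and no other member's call changed. Probe sets called numbered 3531 with the block and 3542 without it.

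Leaving out 1 pair, sterol members called ranged from 4 to 6 (1 to 2 higher, 3 to 5 lower), fatty acid members called higher from 0 to 2, and regulators called from 0 to 1 (0 to 1 higher, 0 to 1 lower). The sterol median ranged from -0.25 (without replicate 2) to -0.03 (without replicate 3). The causes were not tested. Signals near background limit Mvd, Sqle, Hsd17b7 and Elovl6.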
